A study of Homo sapiens with 16 samples.

Results

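Astrocyte marker genes were followed as a set of 8, made up of AQP4, S100B, GJA1, FABP7, APOE, CLU, GLUL and SPARCL1. Members were taken by gene symbol and are 8 of the 20314 genes in the U251 tables and 8 of the 20626 genes in the U343 tables. U251 and U343 are established human glioblastoma lines. Cells of both received, by lipofection and at 25 nM, either a mimic of miR-137 or a control mimic, and total RNA was taken at 48 h. RNASeq measured total RNA, and RIPSeq measured RNA precipitated with a mix of antibodies to poly(A) binding protein (PABP). Each of the 8 groups of cell line, assay and mimic held 2 libraries, 16 in all. U251 cDNA was made with random hexamers and U343 libraries with the TotalScript kit, so cell line and library kit cannot be told apart. Nothing states that the paired libraries came from separate cultures, and p-values measure only the spread between these libraries.

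Astrocytes take up glutamate, move water and potassium, and supply lipid to neurons, and glioblastoma cells keep parts of this gene set to different degrees. miR-137 is a brain-enriched microRNA that guides Argonaute proteins to messages that pair with its seed, which lowers their level or translation. Because PABP coats the poly(A) tail, less message on PABP can mean less message, a shorter tail or less PABP on the same message. The mature sequence below is given because every contrast with the mimic turns on it. It is the -3p arm in RefSeq, in chromosome 1 from 98046091 to 98046113 on the minus strand of GRCh38.p14, and the labels do not say which arm the mimic carries. Capitals mark the seed, bases 2 to 8.
hsa-miR-137-3p: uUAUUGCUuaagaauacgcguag

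The libraries held between 10156675 and 18224061 counted reads in U251 RNASeq, 22359794 to 30731476 in U251 RIPSeq, 37952273 to 45134766 in U343 RNASeq and 37736206 to 45055184 in U343 RIPSeq. Levels are given as CPM, the count of a gene relative to the library total scaled by TMM, a correction for composition, and only within a gene, because gene lengths were not given. In U343 RNASeq, the library of miR-137 replicate 1 stood apart. Its 12 interferon-induced genes summed to 245 CPM, against 13000 CPM in replicate 2 and 254 to 258 CPM in the controls. The same genes summed to 11700 to 14700 CPM in each of the other 6 miR-137 libraries and to 196 to 289 CPM in all control libraries. In U251 RIPSeq, the control libraries differed from each other by a median of 0.61 on the log2 scale over genes, against 0.06 between the miR-137 libraries. Of markers of other cell types, microglial genes summed to at most 4.5 CPM and oligodendrocyte lineage genes to at most 6.41 CPM in any library. Neuronal genes summed to 302 to 1640 CPM in U251, most of it NEFL, and to 7.13 to 21.4 CPM in U343. Endothelial genes summed to at most 9.3 CPM in U251 and to 38.6 to 68.4 CPM in U343. What part these differences have in the results was not tested.

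The label of the set was checked against the 24 further astrocyte genes. They summed to 256 to 415 CPM in U251 and to 4020 to 8090 CPM in U343. Most of the sum in the U343 RNASeq controls, 5020 and 5160 CPM, was GFAP, so the sums there mainly reflect GFAP. In the control RNASeq libraries, edgeR called 13 of the 20 tested higher in U343 and 6 lower, beside 44.5% and 40.3% of all genes. GFAP, the astrocyte intermediate filament, stood at 32.0 ± 1.18 CPM (SD, n = 2) in U251 RNASeq controls and 4598 ± 156 CPM (SD, n = 2) in those of U343. SLC1A3, a glutamate transporter, ran the other way, with 55.3 ± 0.469 CPM in U251 and 0.179 ± 0.00815 CPM in U343 (SD, n = 2). APOE, the lipoprotein that carries cholesterol between brain cells, was close to absent in both lines, with 0.259 to 1.41 CPM in all 16 libraries. The astrocyte label thus holds for some members and not for others in each line.

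The first question was how the members stood in the control RNASeq libraries of each line. AQP4, the water channel of astrocyte end feet, had 0 reads in both U251 libraries, which allows up to 0.178 and 0.165 CPM, and 28.7 and 15.7 CPM in U343. SPARCL1, a secreted matrix protein that helps synapses form, had 0.255 and 0.244 CPM in U251 and 112 and 132 CPM in U343. CLU, an extracellular chaperone also called clusterin, had 63.9 and 49.5 CPM in U251 and 1330 and 1350 CPM in U343. The lines did not overlap for any member, a feature not counted over all genes, so nothing is read from it. The U343 libraries lay above the U251 libraries for AQP4, SPARCL1, CLU, GJA1 and S100B. FABP7, the brain fatty acid binding protein of radial glia, was the reverse, with 92.2 and 111 CPM in U251 and 11 and 14.2 CPM in U343. GLUL, the enzyme that makes glutamine from glutamate, had 121 and 122 CPM in U251 and 70.9 and 56.7 CPM in U343.

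Of the 8 members, 7 differed between the lines in edgeR's quasi-likelihood test, in which 84.8% of 14766 genes tested were called, 44.5% higher and 40.3% lower in U343. With so many genes called, the sizes say more than the count. AQP4 and SPARCL1 also passed the filter on low counts only through U343, where they were high, so nothing is read from their calls. AQP4 had 1923 reads in U343 and 0 in U251, and was at least 126-fold higher in U343 against 3 reads in each U251 library. SPARCL1 was 498-fold higher, with a counting interval of 253 to 1150 from 8 reads in U251. CLU was 24.2-fold higher (log2 4.60, SE 0.15, adjusted p = 2.05e-08). GJA1, the connexin 43 subunit of astrocyte gap junctions, was 2.73-fold higher (log2 1.45, SE 0.14, adjusted p = 1.16e-05). FABP7 was 7.86-fold lower (log2 -2.98, SE 0.15, adjusted p = 1.53e-07) and GLUL 1.85-fold lower (log2 -0.89, SE 0.11, adjusted p = 7.42e-05). S100B, a calcium-binding protein that astrocytes also secrete, was called higher at log2 1.22 (SE 0.45, adjusted p = 0.0304). That call was lost without U251 replicate 1 (adjusted p = 0.137), U251 replicate 2 (0.134) or U343 replicate 1 (0.299). APOE differed by log2 -0.34, with an interval of -1.31 to 0.62.

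**Figure D1:**
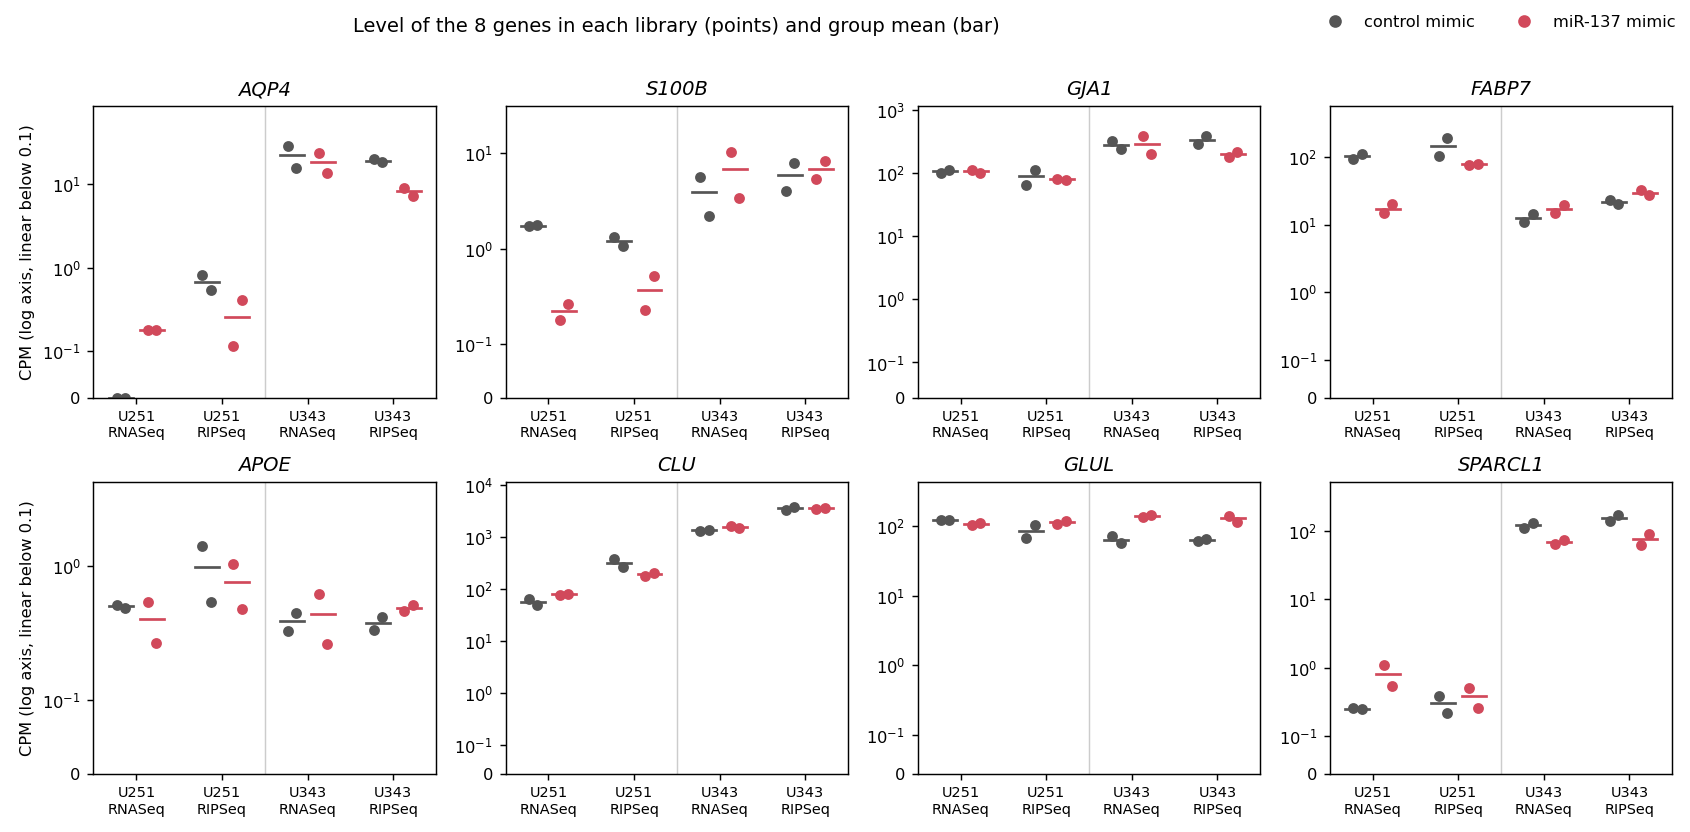
Level of each of the 8 genes in all 16 libraries, in CPM on a log axis that is linear below 0.1, with control mimic in grey and miR-137 mimic in red. Points are libraries and short bars are means of 2 libraries, and AQP4 and SPARCL1 stay near or below 1 CPM in every U251 library while they reach 28.7 and 174 CPM in U343.

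The order of the groups differed among the members. CPM were scaled within each line and assay, so ranks across lines or assays are approximate. AQP4 was highest in the U343 RNASeq controls at 22.2 CPM, followed by the U343 RIPSeq controls at 19.1 CPM and the U343 RNASeq miR-137 libraries at 18.4 CPM, and these neighbours overlapped. The U343 RIPSeq miR-137 libraries came next at 8.18 CPM, apart from both neighbours, and the 4 U251 groups lay between 0 and 0.675 CPM. CLU stood highest in U343 RIPSeq, at 3550 CPM in controls and 3540 CPM with miR-137, which overlapped, and lowest in the U251 RNASeq controls at 56.7 CPM. FABP7 was highest in U251 RIPSeq controls at 146 CPM, which overlapped with the U251 RNASeq controls at 102 CPM. S100B held the top 4 places in the 4 U343 groups, from 3.92 to 6.86 CPM, which overlapped one with the next. GLUL ran only from 63.3 to 138 CPM over all 8 groups. The 8 group means of APOE, from 0.375 to 0.98 CPM, all overlapped with their neighbours.

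In total RNA of U251, the miR-137 mimic went with less FABP7, and S100B and CLU were also called, on few reads and under some settings. FABP7 had 92.2 and 111 CPM in controls and 14.6 and 20.0 CPM with miR-137, and the groups were far apart. It fell 5.89-fold (log2 -2.56, SE 0.17, adjusted p = 5.62e-08). S100B had 1.72 and 1.77 CPM in controls and 0.180 and 0.266 CPM with miR-137, which is 27 and 29 reads against 2 and 3. S100B fell 7.55-fold (log2 -2.92, SE 0.50, adjusted p = 0.000237), but it passed the filter on low counts only through its control libraries, where it was high. With no filter beyond 1 read it was log2 -2.97 (adjusted p = 0.00469), from the same reads, so nothing is read from the S100B call. CLU had 63.9 and 49.5 CPM in controls and 77.4 and 79.4 CPM with miR-137. CLU rose 1.38-fold (log2 0.47, SE 0.14, adjusted p = 0.0127), a call lost without control replicate 2 (adjusted p = 0.225), in the joint fit of all 8 U251 libraries (0.195) and with no filter on low counts (0.0884).

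GJA1 had 103 and 113 CPM in the U251 RNASeq controls and 113 and 102 CPM with miR-137. The groups overlapped fully, and the interval of the log2 change ran from -0.28 to 0.27. GLUL had 121 and 122 CPM in controls and 104 and 110 CPM with miR-137, with log2 -0.17 and adjusted p = 0.239, so the groups were apart but the difference did not pass. The calls were 3 of the 5 members that passed the filter, beside 57.7% of 13052 genes tested, 28.7% higher and 29% lower. Nothing is read from that share, since S100B passed only through the group where it was high. Neuronal genes moved in the same libraries, from 1570 and 1640 CPM in controls to 302 and 314 CPM with miR-137, as did the interferon-induced genes, and their part in these results was not tested. AQP4, APOE and SPARCL1 had too few reads for the test. AQP4 had 0 and 0 reads in controls and 2 and 2 with miR-137. SPARCL1 had 4 and 4 reads in controls and 12 and 6 with miR-137, 3.22-fold more per counted read, and the interval of 1.33 to 8.56 covers counting error only. APOE had 8 and 8 reads in controls and 6 and 3 with miR-137.

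In PABP-bound RNA of U251, none of the 8 members was called in edgeR, against 1.21% of 14087 genes tested, 0.944% higher and 0.263% lower. At an unadjusted p under 0.05 there were 2, S100B and CLU, beside 20.1% of all genes, and DESeq2 called 0, beside 7.97% of all genes. S100B had 1.33 and 1.07 CPM in controls and 0.230 and 0.515 CPM with miR-137 (log2 -1.67, adjusted p = 0.207). FABP7 had 104 and 189 CPM in controls and 77.3 and 79.5 CPM with miR-137 (log2 -0.90, adjusted p = 0.267). CLU had 375 and 263 CPM in controls and 179 and 201 CPM with miR-137 (log2 -0.75, adjusted p = 0.23). For these 3 genes and AQP4 both miR-137 libraries lay below both controls, and for GLUL above both. How many of all genes did so was not counted, so nothing is read from it. AQP4 had 19 and 15 reads in controls and 3 and 11 with miR-137 (log2 -1.35, interval -3.28 to 0.58). These counts turned on the control libraries, with 4 members called without control replicate 1 and 7 without control replicate 2, where 68.1% and 74.4% of all genes were called. S100B, GJA1, FABP7 and CLU were lower without control replicate 1, while GJA1 turned to log2 0.37 without control replicate 2.

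**Figure D2:**
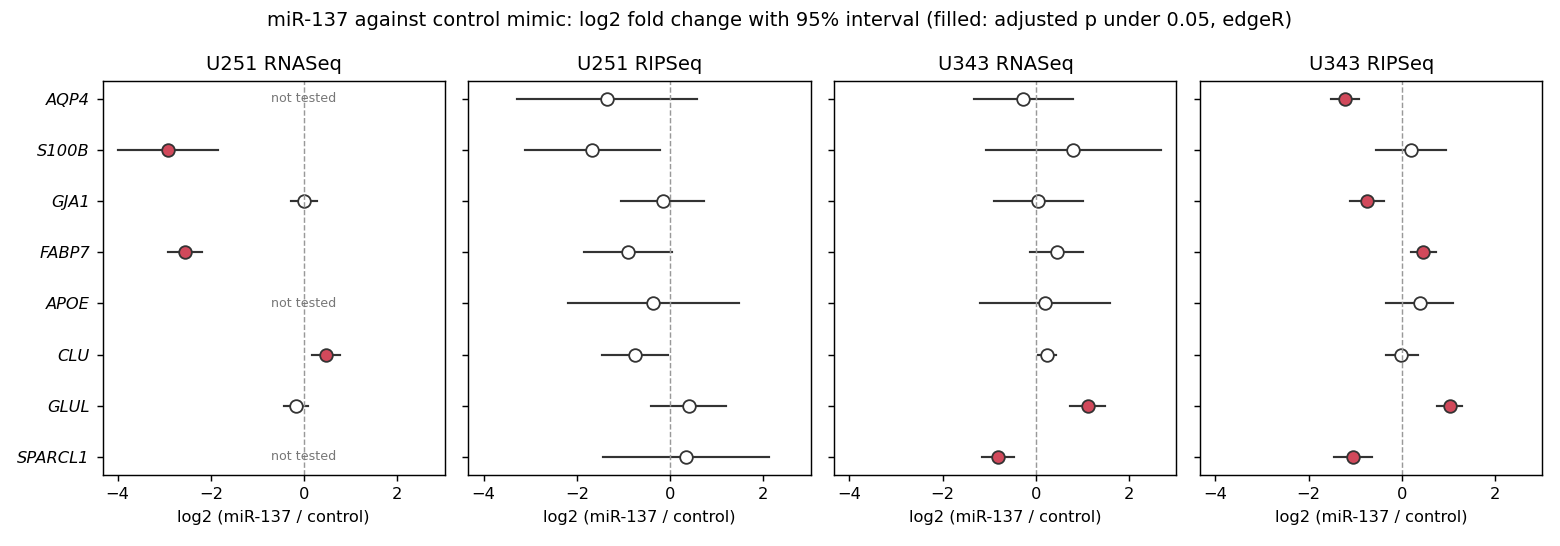
Log2 fold change of miR-137 against control mimic for the 8 genes in each experiment, with 95% intervals from edgeR on 2 libraries a group and filled points for an adjusted p under 0.05. FABP7 and S100B lie at -2.56 and -2.92 in U251 RNASeq, and in both U343 experiments GLUL lies above 0 and SPARCL1 below it.

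In U343, GLUL and SPARCL1 changed in both total and PABP-bound RNA. In RNASeq, GLUL had 70.9 and 56.7 CPM in controls and 135 and 142 CPM with miR-137, with no overlap. GLUL rose 2.17-fold (log2 1.12, SE 0.14, adjusted p = 0.0139). In RIPSeq it had 61.1 and 65.4 CPM in controls and 141 and 115 CPM with miR-137, and rose 2.03-fold (log2 1.02, SE 0.11, adjusted p = 0.000199). The gene has 6 pseudogenes by symbol in RefSeq, which could share its short reads. SPARCL1 ran the other way, with 112 and 132 CPM in RNASeq controls and 65.4 and 73.3 CPM with miR-137. SPARCL1 fell 1.76-fold (log2 -0.82, SE 0.13, adjusted p = 0.0229). In RIPSeq it had 142 and 174 CPM in controls and 62.5 and 90.0 CPM with miR-137, and fell 2.07-fold (log2 -1.05, SE 0.17, adjusted p = 0.00155).

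Of the 8 members in U343 RNASeq, 2 were called, against 20% of 15088 genes tested, 8.31% higher and 11.7% lower. Both calls were made without miR-137 replicate 1, the library with control-like interferon genes, and there FABP7 was called as well. In that library GLUL stood at 135 CPM and SPARCL1 at 65.4 CPM, beside 142 and 73.3 CPM in miR-137 replicate 2. Without either control library no member and 0 of all genes tested were called, and the highest adjusted p was 0.178 for GLUL and 0.223 for SPARCL1. Each of these fits then took its spread from the miR-137 pair, in which 15% of 13259 genes with at least 1 CPM differed by over 1.5-fold, against 2.73% of 13032 genes between the controls.

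AQP4 passed the test in PABP-bound but not in total RNA of U343. In PABP-bound RNA it had 19.9 and 18.2 CPM in controls and 9.06 and 7.30 CPM with miR-137, well apart. AQP4 fell 2.33-fold (log2 -1.22, SE 0.13, adjusted p = 0.000174), and it was called without each of the 4 libraries in turn, with log2 values from -1.39 to -1.08. In total RNA it had 28.7 and 15.7 CPM in controls and 23.3 and 13.6 CPM with miR-137, and the groups overlapped. The log2 change there was -0.27 with an interval of -1.34 to 0.79, and without miR-137 replicate 1 it was -0.73 (adjusted p = 0.139). The difference between the assays was log2 -0.94 with an interval of -2.06 to 0.17 and did not pass (adjusted p = 0.354), so the effects are not shown to differ. Among the alternatives it was called only without the RNASeq miR-137 replicate 2 (log2 -1.30, adjusted p = 0.04).

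AQP4 lies in hg18 on chromosome 18 from 22686005 to 22699714, on the minus strand, and overlaps C18orf16 by 445 bases. Whether strand was used in counting is not given in the sources used here. C18orf16 had 6.88 ± 0.831 CPM in the U343 RIPSeq controls and 7.52 ± 0.596 CPM with miR-137 (SD, n = 2), with log2 0.13 and adjusted p = 0.485. The ratio of AQP4 to C18orf16 reads was 2.66 and 2.90 in the RIPSeq controls and 1.14 and 1.03 with miR-137. In RNASeq this ratio was 2.32 and 1.94 in controls and 1.51 and 1.15 with miR-137. C18orf16 itself had 10.2 ± 3.03 CPM in those controls and 13.6 ± 2.59 CPM with miR-137 (SD, n = 2). Its edgeR log2 change there was 0.40 (adjusted p = 0.344), so the RNASeq ratio also rests on the higher C18orf16 mean. The miR-137 libraries had the lower ratio in both assays, without overlap. None of the other 7 members overlaps another gene of the tables.

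**Figure D3:**
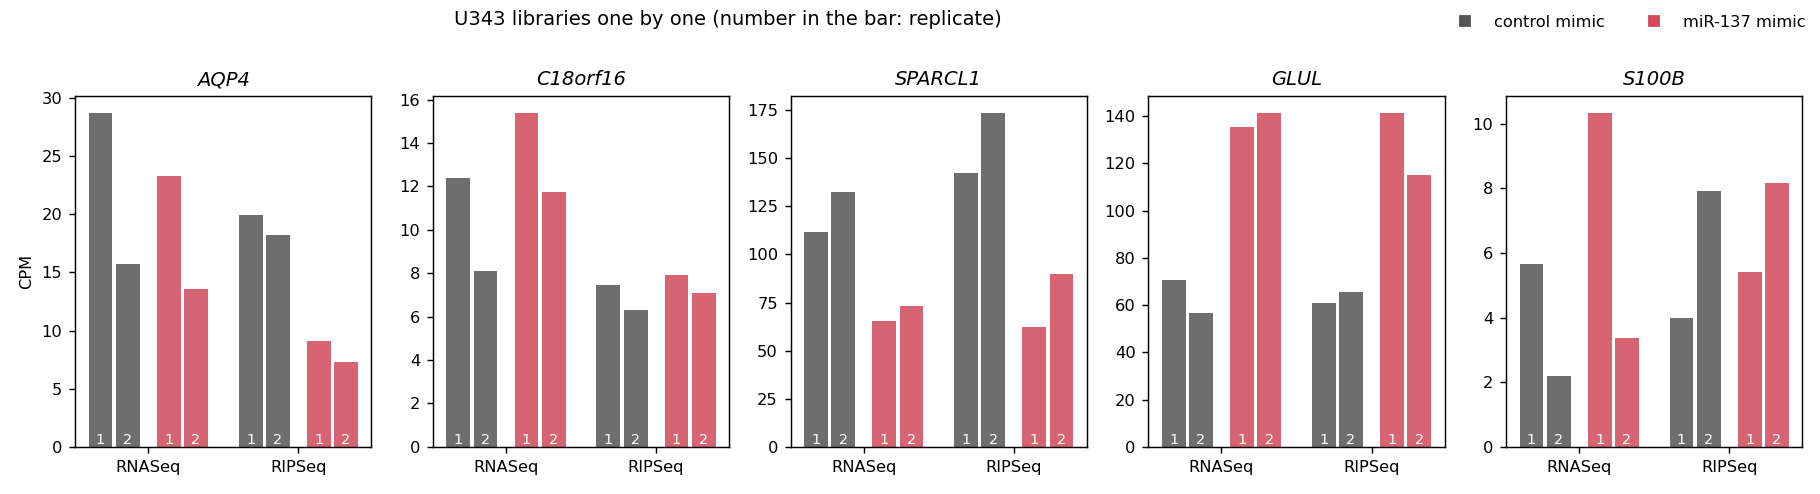
Level in CPM of AQP4, the overlapping C18orf16, SPARCL1, GLUL and S100B in each U343 library, with control mimic in grey, miR-137 mimic in red and the replicate number in the bar. In RIPSeq both miR-137 libraries of AQP4, at 9.06 and 7.30 CPM, lie below both controls while C18orf16 overlaps, and in RNASeq replicate 1 of AQP4 and S100B lies above replicate 2 under either mimic.

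GJA1 also fell in PABP-bound RNA of U343. It had 289 and 386 CPM in controls and 183 and 219 CPM with miR-137, and fell 1.68-fold (log2 -0.75, SE 0.15, adjusted p = 0.00445). In total RNA its libraries overlapped, at 328 and 244 CPM in controls and 389 and 201 CPM with miR-137 (log2 0.04, interval -0.91 to 1.00). FABP7, which fell in U251 RNASeq, rose 1.38-fold in U343 RIPSeq (log2 0.46, SE 0.11, adjusted p = 0.0101), from 23.2 and 20.0 CPM to 31.9 and 27.7 CPM. The FABP7 call was lost without control replicate 2 (adjusted p = 0.0714) or miR-137 replicate 1 (0.0629), and those of GJA1 (0.085) and FABP7 (0.088) in the joint fit of all U343 libraries. S100B had 3.99 and 7.92 CPM in U343 RIPSeq controls and 5.40 and 8.17 CPM with miR-137, so the groups overlapped. CLU had 3350 and 3760 CPM in controls and 3500 and 3580 CPM with miR-137 (log2 -0.01, interval -0.35 to 0.34). Of the 8 members in U343 RIPSeq, 5 were called, 3 lower and 2 higher, against 56.3% of 14866 genes tested, 28.5% higher and 27.8% lower, a share near the background.

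In U343 RNASeq, S100B, AQP4 and GJA1 differed more between replicates than between mimics, with replicate 1 the higher under either mimic. How many of all genes did so was not counted, and the samples are taken to share only a number, so nothing is read from it. S100B had 5.65 and 10.3 CPM in the replicate 1 libraries of control and miR-137, and 2.19 and 3.37 CPM in the replicate 2 libraries. The ratio of replicate 1 to replicate 2 was 2.58 in controls and 3.07 with miR-137 for S100B, 1.83 and 1.72 for AQP4, and 1.34 and 1.94 for GJA1. For FABP7 this ratio was below 1 under either mimic, at 0.778 and 0.755. APOE, on few reads, also differed more between replicates than between mimics, with ratios of 0.724 in controls and 2.38 with miR-137. In RIPSeq the ratio for S100B was 0.504 in controls and 0.662 with miR-137, the other way round.

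The study's own rule runs Fisher's exact test on each of the 4 ways to pair control with miR-137 libraries, and each must give an adjusted p below 0.001 with an odds ratio above 2. It takes no account of spread between replicates. The study applied it to falls only, and calls of higher genes come from the same rule mirrored here. By this rule FABP7 was lower in U251 RNASeq, with odds ratios of control over miR-137 from 3.86 to 6.33, where the rule called 2.21% of genes lower and 6.14% higher. AQP4 was lower in U343 RIPSeq, with odds ratios from 2.08 to 2.63, where it called 3.4% of genes lower and 4.83% higher. No member met the rule in U251 RIPSeq, where 1.49% of genes were lower and 3.47% higher, or in U343 RNASeq, where 2.88% were lower and 1.51% higher. GLUL in U343 RNASeq met the mirrored rule in 2 of the 4 pairs, with odds ratios of miR-137 over control from 1.89 to 2.42. SPARCL1 in U343 RNASeq had odds ratios of control over miR-137 from 1.62 to 1.99.

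Whether the lines answered the mimic differently was tested as an interaction. In RNASeq, 4 members were called, beside 25.2% of 15544 genes tested, 12.5% higher and 12.7% lower in U343 than in U251. FABP7 fell in U251 and had log2 0.44 (adjusted p = 0.212) in U343, and the effects differed by log2 3.00 (SE 0.30, adjusted p = 0.000946). GLUL rose in U343 and had log2 -0.17 in U251, a difference of 1.28 (SE 0.18, adjusted p = 0.00282). SPARCL1 fell in U343 while its few U251 reads were more numerous with miR-137, a difference of -2.49 (SE 0.49, adjusted p = 0.00842). SPARCL1 passed the filter only through U343. With no filter beyond 1 read the difference was -2.45 (adjusted p = 0.00772). That fit rests on the same 4 to 12 reads a library in U251, so nothing is read from the SPARCL1 call. For S100B the difference was 3.73 (SE 1.16, adjusted p = 0.0475), and the call was lost without either U251 control, either U251 miR-137 library or U343 control replicate 2, or with upper-quartile scaling (adjusted p = 0.051). FABP7 and GLUL were called without each of the 8 libraries in turn, and SPARCL1 in 7 of 8, lost without U251 miR-137 replicate 1 (adjusted p = 0.1). Without the U343 miR-137 replicate 1, all 4 were called. In RIPSeq no member was called in edgeR, against 3.3% of genes tested, 2.11% higher and 1.19% lower, while 3 had an unadjusted p under 0.05 (21% of all genes) and DESeq2 called FABP7 (11.6% of all genes). The lines share no libraries, but each line's kit moves with it.

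PABP-bound and total RNA were compared within each line and mimic, which says how a gene stands on PABP relative to the median gene. CLU was higher in PABP-bound RNA in all 4 of these comparisons. In U251 controls CLU had 375 and 263 CPM in RIPSeq and 63.9 and 49.5 CPM in RNASeq, 6.26-fold higher (log2 2.65, SE 0.38, adjusted p = 0.0208). In U251 with miR-137 it had 179 and 201 CPM against 77.4 and 79.4 CPM, 2.60-fold higher (log2 1.38, SE 0.09, adjusted p = 7.11e-06). In U343 it was 2.86-fold higher in controls (log2 1.52, SE 0.10, adjusted p = 4.25e-05) and 2.45-fold higher with miR-137 (log2 1.29, SE 0.14, adjusted p = 0.0146). The call in U251 controls was lost with no filter on low counts (adjusted p = 0.069) or without either RNASeq control (highest 0.249), and that in U343 with miR-137 without either RIPSeq library (highest 0.223) or with the replicate block (0.0628).

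FABP7 was also higher on PABP, in 3 of the 4 comparisons. In U251 with miR-137 it had 77.3 and 79.5 CPM in RIPSeq and 14.6 and 20.0 CPM in RNASeq, 4.88-fold higher (log2 2.29, SE 0.13, adjusted p = 3.85e-06). In U251 controls the log2 ratio was 0.66 (adjusted p = 0.252), with RIPSeq at 104 and 189 CPM and RNASeq at 92.2 and 111 CPM, which overlapped. In U343 FABP7 was 1.85-fold higher in controls (adjusted p = 0.00178) and 1.89-fold with miR-137 (adjusted p = 0.0394), the latter lost with no filter (0.0526), with the replicate block (0.101) or without either RIPSeq library (highest 0.251). With the block, or without either RIPSeq library, 0 of all genes were called there. SPARCL1 was 1.39-fold higher on PABP in U343 controls (adjusted p = 0.0136), and GJA1 was 1.25-fold lower in U251 with miR-137 (adjusted p = 0.0123). The joint fit lost both, at 0.0829 for SPARCL1 and 0.391 for GJA1, as did leaving out RNASeq replicate 1 or RIPSeq replicate 2 for SPARCL1 (highest 0.0854) and either RIPSeq library for GJA1 (highest 0.241). AQP4 in U343 had a log2 ratio of -0.12 in controls (interval -0.68 to 0.45) and -1.05 with miR-137 (interval -1.83 to -0.26, adjusted p = 0.0769). AQP4 in U251 controls had 34 reads in RIPSeq and 0 in RNASeq, a ratio of at least 3.91 against 3 reads in each RNASeq library. Those RIPSeq controls had reads in 19413 and 18540 genes, and the RNASeq controls in 16332 and 16568. Whether such low reads reflect binding to PABP was not tested, so nothing is read from this AQP4 ratio.

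Members called in these comparisons numbered 1 in U251 controls (14% of genes tested were called, 7.87% higher and 6.14% lower), 3 in U251 with miR-137 (65.9%, 32.4% higher and 33.5% lower), 3 in U343 controls (48.6%, 24.4% higher and 24.2% lower) and 2 in U343 with miR-137 (18.1%, 9.29% higher and 8.78% lower). Whether the mimic changed the PABP-bound share was tested as an interaction within each line. No member was called in U251, against 0.134% of genes tested, 0.106% higher and 0.0281% lower, while 2 had an unadjusted p under 0.05 (18.9% of all genes) and DESeq2 called both, FABP7 and CLU (5.05% of all genes). FABP7 differed by log2 1.62 between the assays (SE 0.42, adjusted p = 0.134) and CLU by -1.27 (SE 0.35, adjusted p = 0.146). In U343 no member was called in edgeR (0.00649% of genes tested) or DESeq2 (2.59%), and none had an unadjusted p under 0.05 (17.6% of all genes). These fits scale RIPSeq and RNASeq libraries together by TMM, which centres the contrast, so an overall change in PABP-bound RNA would not show.

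**Figure D4:**
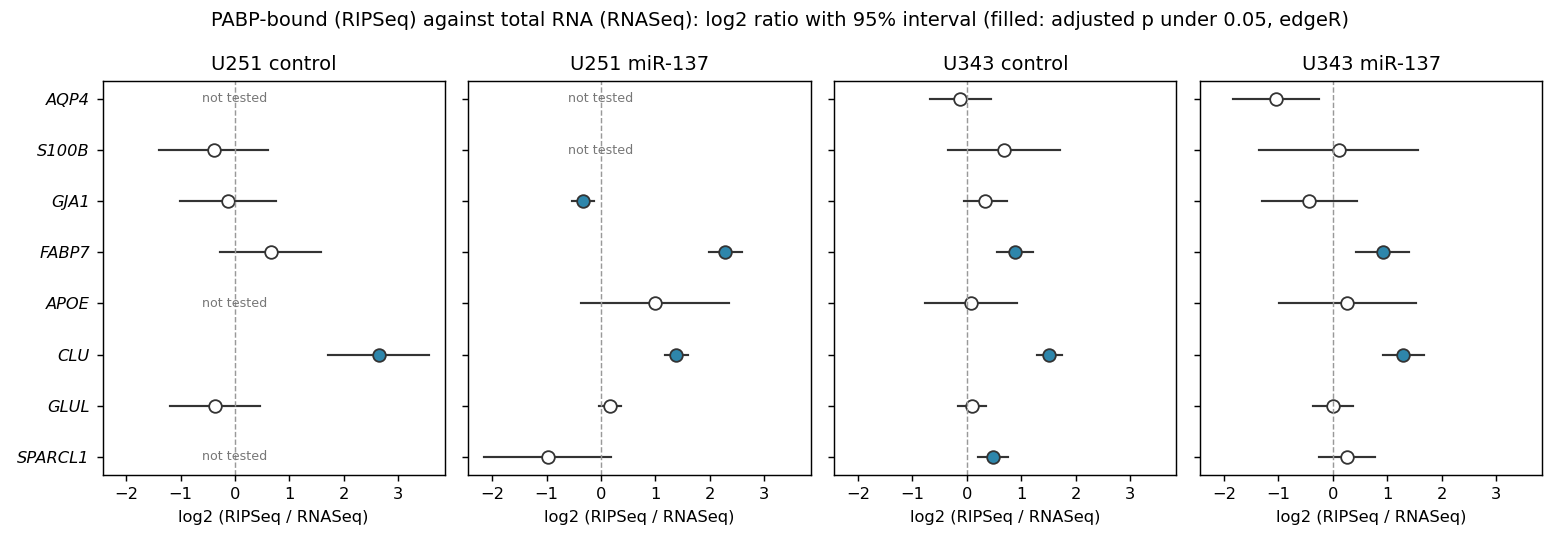
Log2 ratio of PABP-bound (RIPSeq) to total RNA (RNASeq) for the 8 genes in each line and mimic, with 95% intervals from edgeR on 2 libraries a group and filled points for an adjusted p under 0.05. CLU lies above 0 in all 4 panels, from 1.29 to 2.65, and FABP7 at 2.29 in U251 with miR-137.

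The 24 further astrocyte genes were described beside the members. In U251 RNASeq, 3 rose and 5 fell of 12 tested, beside 28.7% and 29% of all genes. The 12 that passed the filter, of 24 listed, had a median log2 of -0.91 against 0.02 over all genes. GFAP fell from 32.0 ± 1.18 to 3.53 ± 0.358 CPM (SD, n = 2; log2 -3.18, SE 0.18, adjusted p = 1.33e-08). SLC1A2, the main glutamate transporter of astrocytes, fell at log2 -1.01 (adjusted p = 0.00204), and CST3, the protease inhibitor cystatin C, rose at log2 1.86 (adjusted p = 1.9e-06). In U251 RIPSeq edgeR called none of 20, beside 1.21% of all genes, and GFAP had log2 -1.09 (adjusted p = 0.205). In U343 RNASeq 1 rose and 2 fell of 21, beside 8.31% and 11.7% of all genes, and GFAP had log2 -0.41 (adjusted p = 0.0517). In U343 RIPSeq 8 rose and 6 fell of 19, beside 28.5% and 27.8% of all genes, with a median log2 of -0.03 against 0.00. GFAP fell there at log2 -0.79 (SE 0.22, adjusted p = 0.0184). SLC1A3 rose 6.43-fold there, but from 0.226 CPM, and EDNRB, an endothelin receptor, fell at log2 -1.77 (adjusted p = 0.00129).

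**Figure D5:**
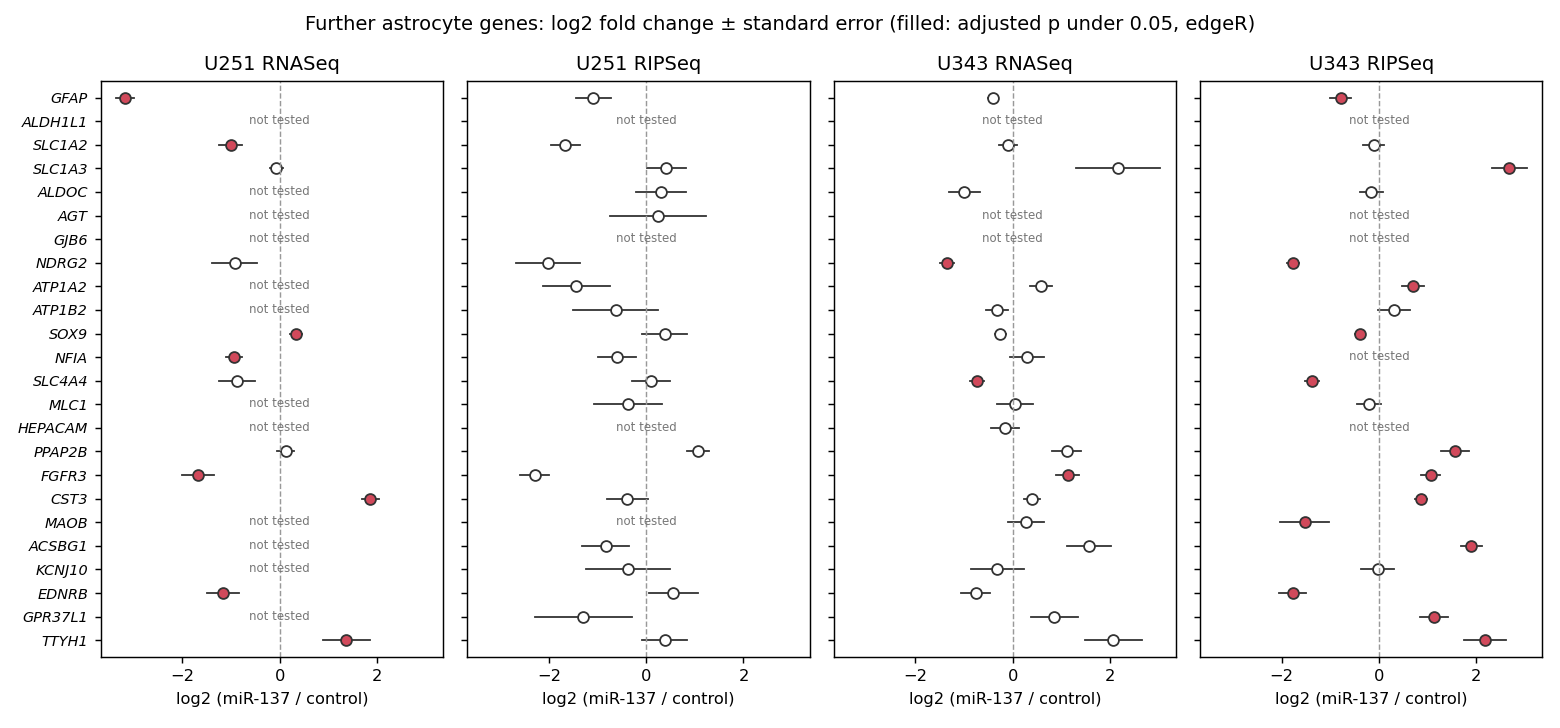
Log2 fold change of miR-137 against control mimic for the 24 further astrocyte genes in the 4 experiments, with standard errors from edgeR on 2 libraries a group and filled points for an adjusted p under 0.05. GFAP lies furthest down in U251 RNASeq at -3.18, and in U343 RIPSeq the filled points lie on both sides of 0.

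Genes that work with a member moved in both directions. Their counts stand beside 28.7% of all genes higher and 29% lower in U251 RNASeq, 0.944% and 0.263% in U251 RIPSeq, 8.31% and 11.7% in U343 RNASeq, and 28.5% and 27.8% in U343 RIPSeq. AQP1, another water channel, rose in U343 RNASeq from 69.8 ± 9.02 to 312 ± 48.6 CPM (SD, n = 2; log2 2.16, adjusted p = 0.00729) and in U343 RIPSeq from 50.5 ± 5.93 to 232 ± 41.2 CPM (log2 2.20, adjusted p = 1.77e-05). Of 12 listed aquaporins, 1 of 2 tested rose in U251 RNASeq, 0 of 8 in U251 RIPSeq, 1 of 6 in U343 RNASeq and 3 of 6 in U343 RIPSeq, with none lower. The dystrophin-associated complex anchors AQP4 at end feet. Its dystroglycan gene DAG1 fell in U251 RNASeq (log2 -0.69), U343 RNASeq (-1.57) and U343 RIPSeq (-1.65). Of its 12 genes, 3 rose and 6 fell of 11 tested in U251 RNASeq, edgeR called 0 of 12 in U251 RIPSeq, 3 rose and 2 fell of 12 in U343 RNASeq, and 5 rose and 4 fell of 12 in U343 RIPSeq. GJC1, another connexin, fell in U251 RNASeq (log2 -0.58), U343 RNASeq (-1.73) and U343 RIPSeq (-1.99).

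Among 14 genes of glutamate and glutamine handling, 9 fell and 1 rose of 12 tested in U251 RNASeq, 1 fell of 13 in U251 RIPSeq, 4 fell of 13 in U343 RNASeq, and 6 fell and 3 rose of 13 in U343 RIPSeq. SLC1A5, a glutamine transporter, fell in all 4 experiments, from log2 -1.45 in U251 RNASeq to -2.82 in U251 RIPSeq (adjusted p = 0.027). GOT1, an aspartate aminotransferase, fell in U343 at log2 -1.75 in RNASeq and -2.31 in RIPSeq. Of 14 lipoprotein receptor and cholesterol efflux genes, 4 rose and 4 fell of 10 tested in U251 RNASeq, edgeR called 0 of 12 in U251 RIPSeq, 4 rose and 2 fell of 11 in U343 RNASeq, and 5 rose and 5 fell of 11 in U343 RIPSeq. The sorting receptor SORT1 fell in U251 RNASeq, U343 RNASeq and U343 RIPSeq, at log2 -1.74, -1.34 and -2.23, while ABCA1, which loads cholesterol onto lipoproteins, rose at 1.48, 0.96 and 1.00. In the S100 family beside S100B, 5 rose and 1 fell of 9 tested in U251 RNASeq, edgeR called 0 of 10 in U251 RIPSeq, and 3 of 9 rose in U343 RNASeq and 2 of 9 in U343 RIPSeq. Of the other 7 SPARC family genes, 1 rose of 3 tested in U251 RNASeq, edgeR called 0 of 5 in U251 RIPSeq, 1 rose and 1 fell of 4 in U343 RNASeq, and 2 rose and 1 fell of 5 in U343 RIPSeq. FSTL1, a secreted glycoprotein of this family, fell in U343 RNASeq (log2 -0.81) and RIPSeq (-1.31). Of 15 gap junction genes, 1 rose and 3 fell of 6 tested in U251 RNASeq, edgeR called 0 of 8 in U251 RIPSeq, 2 fell of 7 in U343 RNASeq, and 3 rose and 3 fell of 8 in U343 RIPSeq. Of 6 other fatty acid binding proteins 1 rose in each experiment, of 3 to 4 tested, and in U251 RIPSeq it was FABP4 (log2 4.26, adjusted p = 0.0247).

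The genes nearest to AQP4 in pattern were found over the 4 U343 groups, since AQP4 averaged 6.5 reads in U251. Among 12649 genes these were RARB, ARHGDIB, PTPLB, ARNTL2 and PTPRG, with root mean square differences of 0.045 to 0.065 on the log2 scale. With only 4 group means, close matches are many, and the differences carry no test. Of the other members GJA1 was nearest, at 0.322 and rank 1061, and SPARCL1 next, at 0.486 and rank 4026. CLU was farthest of the 6 ranked, at 1.07 and rank 11624.

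In the same build, S100B lies on chromosome 21 from 46842959 to 46849463, GJA1 on chromosome 6 from 121798444 to 121812572, and FABP7 on chromosome 6 from 123142345 to 123146917. APOE lies on chromosome 19 from 50100879 to 50104490, CLU on chromosome 8 from 27510368 to 27528244, GLUL on chromosome 1 from 180617463 to 180627964, and SPARCL1 on chromosome 4 from 88613512 to 88669679. FABP7 has 2 pseudogenes and GJA1 has 1 by symbol in RefSeq, so reads of these genes and of GLUL may be shared with copies, and their levels are uncertain to that extent.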

How the data were processed

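Per the labels, cells were transfected, rRNA was depleted and libraries were sequenced. The study's methods map reads to hg18 with RMAP and count them on 1 merged transcript per RefSeq gene. The authors deposited whole-number read counts per gene for each library, with no normalization. An added U251 replicate named in the methods was not analysed here. Members and gene lists were chosen with earlier results of these data known.

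A repeated symbol (1 in U251) was removed. Counts were tested in edgeR 4.0.16 (R 4.3.3) with TMM, filterByExpr, glmQLFit and glmQLFTest, without a block, and adjusted by Benjamini-Hochberg over all genes tested at 0.05. DESeq2 1.42.0, other scalings, filters, a joint fit, a replicate block and leaving out each library were alternatives. Fisher's test used scipy 1.17.1. Scripts were tested on simulated data. Of 4-fold changes simulated in genes with at least 50 reads on average, edgeR recovered 39% in U251 RIPSeq and 59.5% on PABP in U251 controls. It recovered 36% in the U251 assay interaction, 44% in the RIPSeq cell line interaction and 86.5% to 100% elsewhere. A lack of calls where recovery was low says little. Counting intervals are exact 95% binomial ones and, like limits from 3 counts, cover counting error only. Replicate pairs differed beyond sampling noise in all 8 groups (chi-square per degree of freedom 2.63 to 247). Named genes were the 8 members, GFAP, up to 3 risers and 3 fallers a list with 50 reads on average in the higher group, and the 5 nearest to AQP4; SLC1A3 and C18orf16 were added after their values were seen. Target sites were not searched.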

Additional observations from a re-analysis of the deposited data

Results flagged for a closer look

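In RNASeq, 4 of the 8 genes were called for a different effect of miR-137 in U343 and U251, by edgeR's test of the difference itself. The same test called 25.2% of 15544 genes tested. The difference, U343 minus U251, was log2 3.73 for S100B, 3.00 for FABP7, 1.28 for GLUL and -2.49 for SPARCL1, with adjusted p from 0.000946 to 0.0475. The S100B difference ranged from 2.70 to 4.65 without 1 library, was called in 3 of 8 such fits, and missed the threshold with upper-quartile scaling (adjusted p = 0.051). FABP7 fell in U251, and neither FABP7 nor S100B passed in U343, while GLUL rose and SPARCL1 fell in U343. In U251 GLUL did not pass and SPARCL1 had too few reads for the test. S100B had 2 and 3 reads with miR-137 in U251 and passed the filter there only through its controls, so nothing is read from its U251 call. The SPARCL1 difference rests on 4 to 12 reads a library in U251, and SPARCL1 passed the filter only through U343, so nothing is read from its call. Cell line and library kit cannot be told apart in these differences, and the part of the interferon-induced genes, which were near control level in U343 miR-137 replicate 1, was not tested.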

How the results depend on the processing

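Of 30 member effects called in edgeR, none reversed in any alternative, but some lost their call, and some effects that were not called gained one. Called effects lie away from 0, so a reversal was unlikely from the start. The 63 reversals concerned effects that were not called. Shares of all genes called in the same setting follow in parentheses. The number of members called was 1 in U251 RIPSeq, S100B, (16.6%) and 3 in U343 RIPSeq (45.7%) in the joint fit, 0 on PABP in U251 controls (0.506%) and 1 in U343 with miR-137 (8.66%) with no filter, and with DESeq2 2 for the assay interaction in U251 (5.05%) and 1 for the cell line interaction in RIPSeq (11.6%). The study's rule, mirrored for rises, gave 2 members in U251 RNASeq at an adjusted p of 0.05 (2011 genes in all). It gave 2 there also with TMM totals (1586 genes). With an odds ratio of 1.5 it gave 3 in U343 RIPSeq (3437 genes) and 2 in U343 RNASeq (2053 genes). With the replicate block, 0 members were called on PABP in U343 with miR-137 (0%) and 5 in place of 4 in the RNASeq cell line interaction (25%), which added AQP4. Over genes, the difference between control replicates was correlated with that between miR-137 replicates. The correlation was 0.054 in U251 RNASeq, -0.103 in U251 RIPSeq, 0.122 in U343 RNASeq and 0.425 in U343 RIPSeq. In U343 RIPSeq the block called 64.9% of all genes, against 56.3% without it, and the same 5 members. The samples are taken to share only a number. The causes were not tested.

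Leaving out 1 library at a time gave 0 to 7 members in U251 RIPSeq (0.901% to 74.4% of all genes), 0 to 3 in U343 RNASeq (0% to 39.6%), and on PABP 0 to 5 in U251 controls (1.49% to 75.9%), 2 to 5 in U251 with miR-137 (50.9% to 68.2%) and 0 to 4 in U343 with miR-137 (0% to 36.7%). The interactions, left out in turn after the data were seen, gave 0 to 4 for assay in U251 (0% to 58%), 0 to 2 for assay in U343 (0% to 19.8%), 2 to 4 for cell line in RNASeq (12.2% to 36.9%) and 0 to 3 in RIPSeq (0.0115% to 52.3%). The rule gave 0 to 1 in U251 RIPSeq (1117 to 3671 genes in all), 1 to 2 in U251 RNASeq (1869 to 2484), 1 to 3 in U343 RIPSeq (2009 to 2112) and 0 to 1 in U343 RNASeq (1094 to 1765).

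Among effects that were not called, GJA1 in U251 RNASeq was log2 0.14 with upper-quartile scaling, 0.07 with at least 50 reads on average and 0.02 in the joint fit, in U343 RNASeq -0.02 with the replicate block, and in the RNASeq cell line interaction -0.03 with upper-quartile scaling. CLU in U343 RIPSeq was 0.02 with upper-quartile scaling, 0.00 with no filter and 0.01 with at least 50 reads. GLUL on PABP in U343 with miR-137 was 0.00 with DESeq2, -0.04 with upper-quartile scaling, and -0.01 with either other filter. APOE in the U251 assay interaction was 0.10 with no filter.

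Without 1 library, log2 ranges that crossed 0 were as follows for the effect of miR-137. GJA1 ran from -0.08 to 0.06 in U251 RNASeq, -0.50 to 0.37 in U251 RIPSeq and -0.52 to 0.44 in U343 RNASeq. APOE ran from -0.95 to 0.48 in U251 RIPSeq and -0.56 to 0.69 in U343 RNASeq. SPARCL1 ran from -0.16 to 0.79 in U251 RIPSeq, AQP4 from -0.73 to 0.23 in U343 RNASeq, and CLU from -0.09 to 0.07 in U343 RIPSeq. S100B ran from -0.24 to 1.65 in U343 RNASeq and -0.23 to 0.76 in U343 RIPSeq. On PABP, GJA1 ran from -0.61 to 0.18 in U251 controls and -0.87 to 0.11 in U343 with miR-137, AQP4 from -0.48 to 0.38 and APOE from -0.16 to 0.31 in U343 controls, and GLUL from -0.05 to 0.26 there. In U343 with miR-137, S100B ran from -0.52 to 1.12, APOE from -0.26 to 1.00, GLUL from -0.17 to 0.16 and SPARCL1 from -0.02 to 0.47. In the assay interaction, GJA1 ran from -0.44 to 0.32 and APOE from -0.67 to 0.84 in U251, and in U343 S100B ran from -1.47 to 0.43, FABP7 from -0.17 to 0.21, APOE from -0.33 to 0.93 and GLUL from -0.28 to 0.06. In the cell line interaction, GJA1 ran from -0.52 to 0.44 and APOE from -0.25 to 1.14 in RNASeq, and AQP4 from -0.59 to 1.21 and APOE from -0.07 to 1.30 in RIPSeq.

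With 2 libraries a group, the precision is low for APOE, at 3 to 33 reads a library, and in U251 for AQP4, S100B and SPARCL1, at 0 to 31 reads, and values that rest on these reads are to be read with that limit.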
